A study of Rattus norvegicus with 241 samples.

Results

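Basal mammary epithelial cells of adult virgin ACI rats were compared after treatment with TGFBRi or vehicle, in 4 rats each. These 8 bulk RNA-seq samples were found by their labels (age class, strain, cell type basal, parity virgin and treatment) and are 8 of 241 samples in the series, 202 of which are bulk. The series asks how a short period of TGFβ receptor inhibition alters the rat mammary gland in the setting of tumor prevention. Here the question is how basal cells of the post-pubertal, nulliparous gland differed at the end of treatment.

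Virgin female ACI/SegHsd rats aged 18 to 24 weeks received TGFBRi (LY2157299, galunisertib) at 75 mg/kg by oral gavage in 2 doses per day for 10 days, and controls received the vehicle alone, made of carboxymethylcellulose, sodium lauryl sulfate and Povidone. Rats were sacrificed at day 0, the day of the final dose. The drug was given to the whole animal, so every cell type of the gland was exposed. Basal cells were sorted as CD24+ CD29high cells after CD31+ and CD45+ cells had been removed, and each sample was labelled with 1 rat. The p-values below measure the spread between rats. In the main fit it was estimated over all 16 adult basal samples, those of parous rats included. The lowest correlation between libraries of a group was 0.853 for virgin TGFBRi and 0.889 for virgin vehicle rats. For parous vehicle and parous TGFBRi rats it was 0.938 and 0.939. The shared spread thus takes in parous groups whose libraries were more alike than those of the virgin groups compared.

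Galunisertib blocks the kinase of TGFBR1, the type I receptor for TGFβ. The ligand is stored in the matrix in a latent complex held by LTBP proteins, and once released it binds TGFBR2, which recruits TGFBR1 so that SMAD2 and SMAD3 are phosphorylated and enter the nucleus. Basal cells of the mammary duct lie on the basement membrane, produce much of it, and contract through smooth muscle actin. In these cells TGFβ signaling is known to raise matrix genes and to restrain proliferation.

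Values are normalized counts, which are reads on a gene divided by the size factor of its sample. Each library held 19114809 to 36217197 reads on genes. The sorted cells carried the basal identity their labels gave. KRT14, a keratin of basal cells, ranged from 61956 to 170726 normalized counts in the 8 samples, and from 418 to 11110 in the luminal samples of virgin rats, which were normalized in a separate table. TP63, the transcription factor that maintains basal cells, ranged from 1431 to 6274 in the basal samples and from 0 to 95.4 in those luminal samples.

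Some libraries stood apart, and counts that changed by over 1.5 times without vehicle replicate 1 and TGFBRi replicate 3 are also given without them. Vehicle replicate 1 had the lowest KRT14 of its group (76463) and the lowest KRT5 (19332), the partner keratin of KRT14, against 54700 to 61020 in the other 3. It held KRT8, a luminal keratin, at 102508 against 37830 to 38500, and PTPRC, the leukocyte antigen CD45, at 694 against 0 to 2.54. PTPRC was chosen after its values were seen. The summed level of 17 endothelial markers was 70576 in vehicle replicate 1, 5031 to 10961 in the other vehicle rats and 3228 to 11476 in the TGFBRi rats. For 23 leukocyte markers the sums were 78631, 9067 to 17147 and 6132 to 11194, and for 20 luminal markers 497904, 145622 to 166623 and 147137 to 209925.

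The virgin TGFBRi libraries detected fewer genes than any other adult basal group. Vehicle libraries held reads on 12123 to 12561 genes and TGFBRi libraries on 10151 to 11434, so the groups did not overlap. After all 16 adult basal libraries were thinned to the smallest of them, 19114809 reads, the ranges were 12083 to 12489 and 10151 to 11279. Parous vehicle libraries held 11775 to 12306 genes and parous TGFBRi libraries 12138 to 12575. TGFBRi replicate 3 had the fewest genes, and TGFBRi replicate 1 had the largest share of reads on no annotated gene of the 8 samples, 21.02% against 13.22% to 14.5% in the other 7.

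**Figure D1:**
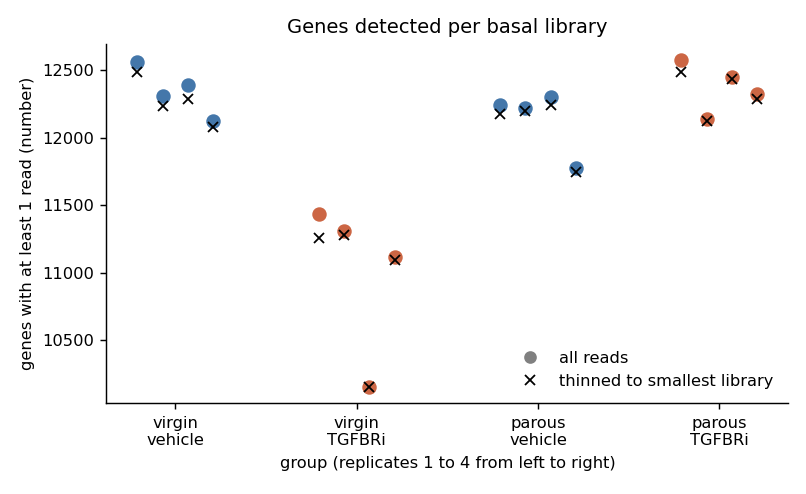
Number of genes with at least 1 read in each adult basal library, by group, with all reads (circles) and after thinning every library to the smallest (crosses). The axis does not start at 0. The 4 virgin TGFBRi libraries sit between 10151 and 11434 genes, below every other library.

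In virgin rats 1173 of 13442 genes tested differed between TGFBRi and vehicle at an adjusted p of 0.05 or less (8.73%). Of these, 336 were raised (2.5%) and 837 lowered (6.23%). The test was limma on log2(normalized count + 1) over all 16 adult basal samples, and all adjusted p-values are from it unless another tool is named. Fold changes are on this scale. For low genes they departed from those of edgeR, a count tool, in both directions. MYO5A, at 0 in every TGFBRi rat, had a log2 fold change of -6.74, and -9.8 by edgeR. PGR, at 0 in some TGFBRi rats, had -5.84, and -3.73 by edgeR. The median log2 fold change over all genes was -0.25, so changes are to be read beside this shift. On log2(CPM + 1), where reads are scaled to a common library total and the 1 weighs more against low genes, it was -0.11 both with TMM scaling and with plain library totals. Every gene named below kept its direction under both. On the recovered reads edgeR called 881 genes (6.55%), 330 raised (2.45%) and 551 lowered (4.1%), and DESeq2 called 1688 (12.6%), of which 658 were raised (4.9%) and 1030 lowered (7.66%). Raised genes made up 39% of the DESeq2 calls and 28.6% of the limma calls. The 4 TGFBRi values all lay above the 4 vehicle values in 592 genes (4.4%) and below them in 947 (7.05%), 1539 in all (11.4%).

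The number of calls depended on which libraries and groups entered the fit. With only the 8 virgin samples, and hence a spread estimated from them alone, 139 genes were called (1.03%; 0.268% of genes tested were raised and 0.766% lowered), and 34 of the called genes named here missed the threshold, COL4A1, THBS1, CDKN1A, CTNNB1 and KRT5 among them, while TGFBR1, LTBP2, ACTA2, PTHLH, FLNA and LAMC1 passed. Leaving out 1 rat gave 505 calls without vehicle replicate 3, 620 without vehicle replicate 4, 713 without vehicle replicate 2 and 762 without TGFBRi replicate 3, and 882 to 1710 without any other rat. With both vehicle replicate 1 and TGFBRi replicate 3 left out, 614 genes were called (4.57%), 158 of them raised (1.18%) and 456 lowered (3.39%), and 511 were among the 1173. There 10 of the called genes named here missed it: TGFBR2, THBS1, SNAI2, FN1, COL3A1, LAMA4, ITGA6, LMOD1, PECAM1 and VDR.

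Calls differed with expression level. Among 1907 genes with a mean under 10 normalized counts, 0 were raised and 44 lowered, and among 2514 genes with a mean of 10 to 100, 3 were raised and 212 lowered, with a median log2 fold change of -1.3. Between 1000 and 10000 normalized counts 201 genes were raised and 249 lowered (median 0.04), and above 10000 the calls were 35 raised and 36 lowered (median 0.1). Of the 837 lowered genes, 300 were at 0 reads in at least 1 TGFBRi library and 87 in all 4. The lowered genes also spanned more of the genome, with a median of 40.4 kb against 17.8 kb for raised and 22.5 kb for all genes (RefSeq GRCr8 gene models). In these bulk samples fewer cells of a type and less RNA per cell cannot be told apart.

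**Figure D2:**
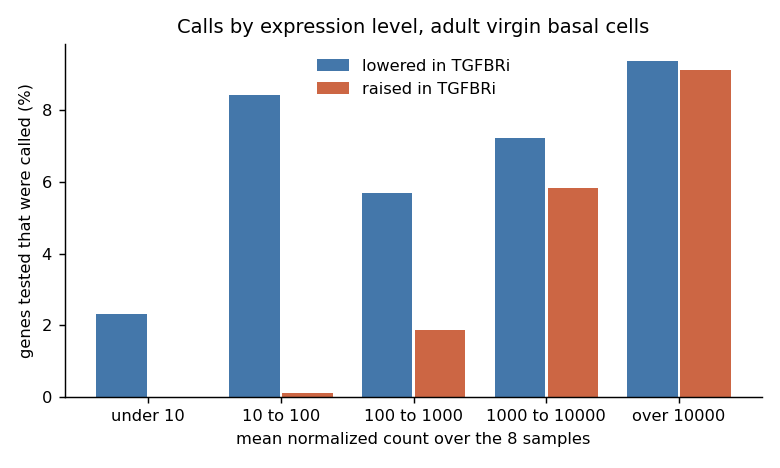
Percent of genes tested that were raised or lowered in TGFBRi, by mean normalized count over the 8 samples. At a mean of 10 to 100 normalized counts 0.119% of genes were raised and 8.43% lowered, while above 10000 the shares were 9.11% and 9.38%.

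The receptor that the drug targets was lower in every TGFBRi rat than in any vehicle rat. TGFBR1 was at 995, 519, 666 and 381.5 normalized counts in vehicle replicates 1 to 4 and at 79.6, 107.04, 153 and 129 in TGFBRi replicates 1 to 4. The highest TGFBRi value was below the lowest vehicle value. The difference was 5.25-fold (log2 fold change -2.39 ± 0.31 SE, adjusted p = 6.1e-04), and it was called in each of the 8 fits that left out 1 rat. TGFBR2, which binds the ligand first, was also lowered (log2 -1.05 ± 0.27, adjusted p = 0.0246), but its call was lost without vehicle replicate 1 or 3 or TGFBRi replicate 3 or 4, where the adjusted p reached 0.0683. TGFBR3, the coreceptor betaglycan, did not pass the test (log2 -0.54 ± 0.31, adjusted p = 0.283), with its values of 1035 to 3051 overlapping the vehicle range of 2542 to 3168.

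LTBP2, LTBP3 and THBS1 were lowered. LTBP2, a matrix protein of the latent TGFβ binding family that is not known to bind the latent complex itself, was at 14727, 26229, 52267 and 31182 in vehicle rats and at 5502, 5157, 2929 and 4642 in TGFBRi rats, without overlap (6.35-fold lower, log2 -2.67 ± 0.45, adjusted p = 0.00259). LTBP3, which tethers the latent complex, was at 5817 to 13102 and 1980 to 4979 (log2 -1.41 ± 0.30, adjusted p = 0.0101, and 0.0779 with only the 8 virgin samples). THBS1, thrombospondin, an activator of latent TGFβ, was an abundant transcript of these cells. Its values were 473337, 345418, 478113 and 255147 in vehicle rats and 145524, 225662, 74307 and 39920 in TGFBRi rats. It fell without overlap (log2 -1.92 ± 0.46, adjusted p = 0.0175), though the adjusted p was 0.0564 without vehicle replicate 3, 0.0847 without vehicle replicate 1 and TGFBRi replicate 3, and 0.0946 with only the 8 virgin samples.

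The ligands and the SMADs named here did not pass limma's test. TGFB1 was at 388 to 954 in vehicle and 734 to 1668 in TGFBRi rats (log2 0.98 ± 0.32, adjusted p = 0.0687), and it was called when vehicle replicate 1 and TGFBRi replicate 3 were left out (adjusted p = 0.0433) and by DESeq2 (adjusted p = 0.0449). TGFB2 and TGFB3 had log2 fold changes of -0.54 ± 0.43 and -0.68 ± 0.27. The signal transducers SMAD2 (log2 0.56 ± 0.21, adjusted p = 0.106, and 0.0476 by DESeq2) and SMAD3 (log2 -0.36 ± 0.28, adjusted p = 0.43) overlapped between groups. Over the list of TGFβ ligands, receptors, carriers and SMADs, 6 of 20 members tested were lowered and 0 raised, beside 6.23% and 2.5% of all genes. The median log2 fold change was -0.67 against -0.25 for all genes. DESeq2 lowered 7 and raised 2 members, beside 7.66% and 4.9% of all genes. With only the 8 virgin samples 2 were lowered and 0 raised, beside 0.766% and 0.268%. Without vehicle replicate 1 and TGFBRi replicate 3 the list held 3 lowered and 1 raised member (median -0.40). The shares of all genes were then 3.39% and 1.18% (median -0.11).

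Feedback genes, which SMADs switch on to limit the pathway, included no called gene among the 9 tested, by limma, edgeR or DESeq2. With 8.73% of all genes called, 0 of 9 does not set them apart. Their median was 0.29. PMEPA1, which binds SMADs, was at 26478, 18896, 23245 and 16478 in vehicle and 44463, 22788, 99355 and 31489 in TGFBRi rats, with TGFBRi replicate 3 the highest and replicate 2 inside the vehicle range (log2 1.01 ± 0.48, adjusted p = 0.192). The inhibitory SMAD7 overlapped widely (log2 0.22 ± 0.41, adjusted p = 0.767).

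Of 28 known TGFβ target genes tested, 3 were raised and 6 lowered (median -0.58), beside 2.5% and 6.23% of all genes. THBS1, LTBP2, FN1 and COL3A1 were among the lowered members. The lists share members, so their counts overlap. THBS1 and LTBP2 also count in the list of ligands, receptors, carriers and SMADs. THBS1 and FN1 also count among the matrix glycoproteins below, and COL3A1 among the fibrillar collagens. With only the 8 virgin samples 0 of the 28 were raised and 1 was lowered, beside 0.268% and 0.766% of all genes. CDKN1A, the p21 inhibitor of cyclin-dependent kinases, was at 1064, 477, 530 and 613 in vehicle and 3120, 1507, 8369 and 2259 in TGFBRi rats, without overlap and with TGFBRi replicate 3 the highest (4.81-fold higher, log2 2.27 ± 0.46, adjusted p = 0.0075). SNAI2, the transcription factor Slug of basal cells, was at 653 to 1826 and 2516 to 4406 (log2 1.33 ± 0.33, adjusted p = 0.021). Its adjusted p was 0.0511 without vehicle replicate 1, and 0.0888 with only the 8 virgin samples. Without vehicle replicate 1 and TGFBRi replicate 3 the target list held 2 raised and 1 lowered member, beside 1.18% and 3.39% of all genes. The 1 lowered member of 28 is close to the share of all genes.

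**Figure D3:**
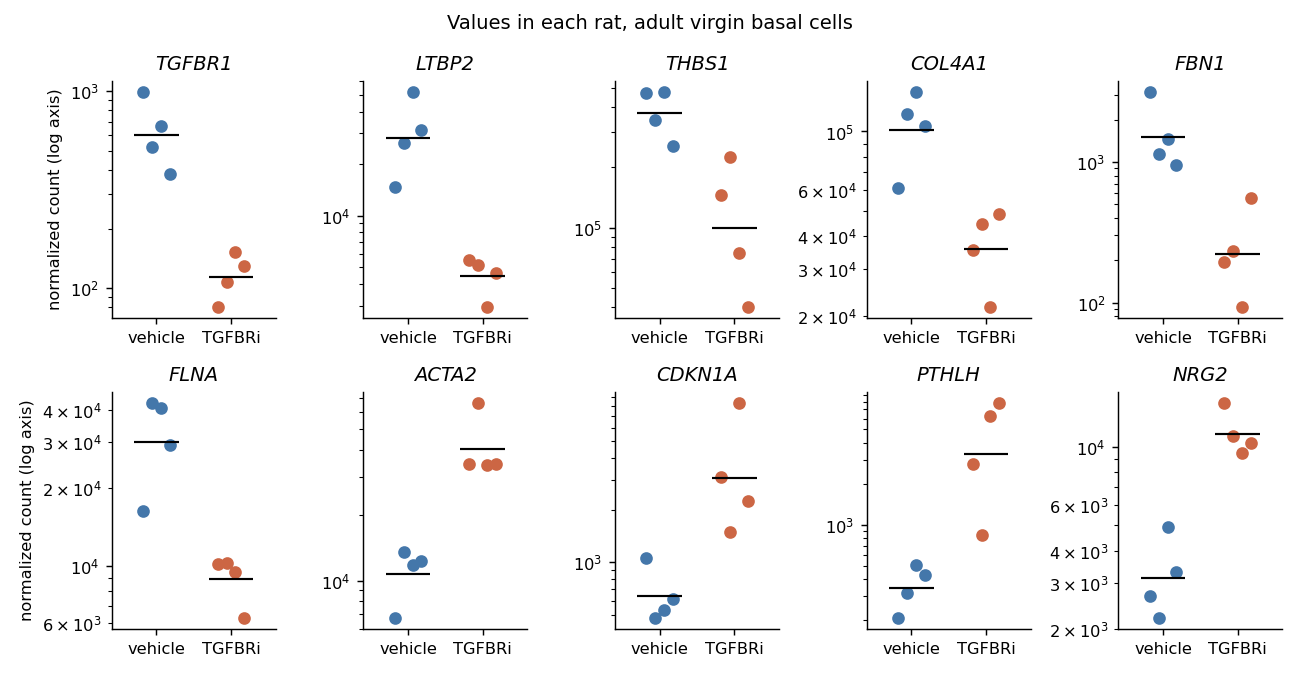
Normalized counts of 10 genes in each rat on log axes, with replicates 1 to 4 from left to right and lines at the mean of the log2 values. In these genes every TGFBRi rat lies outside the vehicle range, as for TGFBR1 at 79.6 to 153 against 381.5 to 995.

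Of 14 basement membrane genes tested, 6 were lowered, 0 were raised and 8 were not called, against 6.23% of all genes lowered, with a median log2 fold change of -1.16, and 5 were lowered without vehicle replicate 1 and TGFBRi replicate 3 (median -0.95). Without those libraries 3.39% of all genes were lowered (median -0.11). With only the 8 virgin samples 1 of the 14 was lowered, beside 0.766% of all genes. COL4A1, the α1 chain of collagen IV, was at 60803, 116544, 141424 and 104788 in vehicle rats and 35454, 44583, 21489 and 48513 in TGFBRi rats. The groups did not overlap (2.83-fold lower, log2 -1.50 ± 0.32, adjusted p = 0.01). LAMC1, the laminin γ1 chain found in most laminins, was at 11004 to 18518 and 4037 to 6230 (log2 -1.53 ± 0.24, adjusted p = 0.0017). The laminin chain LAMA4 (log2 -1.95 ± 0.45, adjusted p = 0.0148) and the heparan sulfate proteoglycan AGRN (log2 -1.71 ± 0.34, adjusted p = 0.00696) also fell. With only the 8 virgin samples the adjusted p was 0.063 for COL4A1, 0.0347 for LAMC1, 0.0977 for LAMA4 and 0.0627 for AGRN. LAMA4 is abundant in vessels, and vehicle replicate 1 had its highest value, 3357 against 609 to 1282 in the other vehicle rats. The summed level of the list was 144499 to 271140 in vehicle and 58987 to 110896 in TGFBRi rats.

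In the interstitial matrix, FBN1, the main protein of microfibrils, was at 3151, 1137, 1458 and 956 in vehicle and 194, 234, 92.4 and 556 in TGFBRi rats. Vehicle replicate 1 was the highest and the groups did not overlap (6.77-fold lower, log2 -2.76 ± 0.44, adjusted p = 0.00195). COL6A2, a chain of the beaded collagen VI, was narrow in each group, at 6180 to 7893 and 1901 to 2826 (log2 -1.56 ± 0.23, adjusted p = 0.00126). COL16A1, a fibril-associated collagen, also fell (log2 -1.43 ± 0.30, adjusted p = 0.00961). Of 27 matrix glycoproteins 6 were lowered (median -1.09), and of 14 non-fibrillar collagens outside the basement membrane 3 were lowered (median -0.68). Of all genes 6.23% were lowered (median -0.25). Both lists had 0 raised members. The glycoproteins held, without vehicle replicate 1 and TGFBRi replicate 3, 3 lowered and 1 raised member (median -0.63) and these collagens 4 lowered members. With only the 8 virgin samples 1 member of each list was lowered. The shares of all genes lowered in these settings were 3.39% and 0.766%, in that order.

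Among fibrillar collagens a single TGFBRi rat stood apart. Of 9 tested, 2 were lowered, COL3A1 among them (median -1.06), and 0 without vehicle replicate 1 and TGFBRi replicate 3. The shares of all genes lowered were 6.23% and 3.39%. COL1A1, the main chain of collagen I, was at 19126, 12208, 13269 and 9729 in vehicle and 3051, 4984, 3881 and 76522 in TGFBRi rats, so that TGFBRi replicate 4 was the highest of the 8 and the other 3 TGFBRi rats were below every vehicle rat (log2 -0.68 ± 0.74, adjusted p = 0.589, and log2 0.71 by edgeR). COL3A1 had the same outline, at 13549 to 19201 in vehicle and 1257, 2125, 1378 and 22512 in TGFBRi rats. COL3A1 was called (log2 -2.39 ± 0.69, adjusted p = 0.0429; 0.326 by edgeR), and the call remained in only 1 of the 8 fits that left out 1 rat, the one without TGFBRi replicate 4. In the other 7 its adjusted p reached 0.113. FN1, fibronectin, was at 14435, 2135, 5069 and 1948 in vehicle and 332, 364, 412 and 2991 in TGFBRi rats (log2 -2.75 ± 0.66, adjusted p = 0.0194, and 0.0559 without vehicle replicate 3). TGFBRi replicate 4 also held the highest proliferation transcripts, with TOP2A at 894 and MKI67 at 856. Fibroblast markers summed to 28977 to 88652 in vehicle rats and to 11837 to 121166 in TGFBRi rats, and 2 of 14 were lowered, 0 without vehicle replicate 1 and TGFBRi replicate 3. Their part in the collagen values was not tested. Matrix proteases and inhibitors showed 3 of 29 lowered members, beside 6.23% of all genes. Among the 3, MMP14, the membrane-bound collagenase, was at 14998 to 19397 and 6555 to 11346 (log2 -1.06 ± 0.20, adjusted p = 0.00531). Without vehicle replicate 1 and TGFBRi replicate 3 the list had 1 lowered member, beside 3.39% of all genes. With only the 8 virgin samples it had 0, beside 0.766%.

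Genes that link cells to the basement membrane and to the actin skeleton were lowered in part. Of 16 integrins 4 were lowered (median -0.64), 2 without vehicle replicate 1 and TGFBRi replicate 3 (median -0.35) and 1 with only the 8 virgin samples. Of all genes 6.23%, 3.39% and 0.766% were lowered in these fits, in that order, with medians of -0.25, -0.11 and -0.25. ITGB4, the hemidesmosomal integrin that binds laminin, was at 10943, 18032, 20621 and 15377 in vehicle and 6905, 5597, 4020 and 3667 in TGFBRi rats, without overlap (3.24-fold lower, log2 -1.69 ± 0.29, adjusted p = 0.00317). Its partner ITGA6 fell less (log2 -0.80 ± 0.19, adjusted p = 0.0184, up to 0.0597 without vehicle replicate 2 or 3). ITGA8, which binds nephronectin, also fell (log2 -1.47 ± 0.33, adjusted p = 0.0132, and 0.0505 without vehicle replicate 3).

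Of 19 focal adhesion genes 6 were lowered and 2 raised (median -0.20), beside 6.23% and 2.5% of all genes (median -0.25). With only the 8 virgin samples 3 were lowered and 1 raised, beside 0.766% and 0.268% of all genes. The median was -0.53 without vehicle replicate 1 and TGFBRi replicate 3, with 5 lowered and 2 raised, beside 3.39% and 1.18% of all genes. FLNA, the actin crosslinker filamin A, was at 16210, 42607, 40704 and 29091 in vehicle and 10188, 10291, 9425 and 6282 in TGFBRi rats, again without overlap (log2 -1.76 ± 0.29, adjusted p = 0.00238). The adaptors TNS1 (log2 -1.86 ± 0.34, adjusted p = 0.00443) and TLN1, talin, which was chosen after its values were seen (log2 -1.11 ± 0.19, adjusted p = 0.00317), fell as well. So did PTK2, focal adhesion kinase (log2 -1.37 ± 0.28, adjusted p = 0.00724). These 4 genes were called in each fit that left out 1 rat. With only the 8 virgin samples the adjusted p was 0.0437 for FLNA, 0.0547 for TNS1 and 0.0889 for PTK2.

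Among 22 cadherins and adhesion molecules 5 were lowered and 0 raised (median -0.78), and 1 was lowered with only the 8 virgin samples. Of all genes 6.23% and 0.766% were lowered in these fits (median -0.25). CTNNB1, β-catenin, which joins cadherins to actin and carries Wnt signals, was at 4095, 3472, 3874 and 3696 in vehicle and 1838, 2221, 1026 and 855 in TGFBRi rats, a narrow vehicle group well above all TGFBRi rats (log2 -1.46 ± 0.25, adjusted p = 0.00318). CTNND1, p120-catenin, which holds cadherins at the membrane, fell by 1.87 ± 0.29 on the log2 scale (adjusted p = 0.00194). Desmosomal and hemidesmosomal genes had 4 of 13 lowered members, ITGB4 and ITGA6 among them, 3 without vehicle replicate 1 and TGFBRi replicate 3, and 1 with only the 8 virgin samples. The shares of all genes lowered were 6.23%, 3.39% and 0.766%, in that order.

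**Figure D4:**
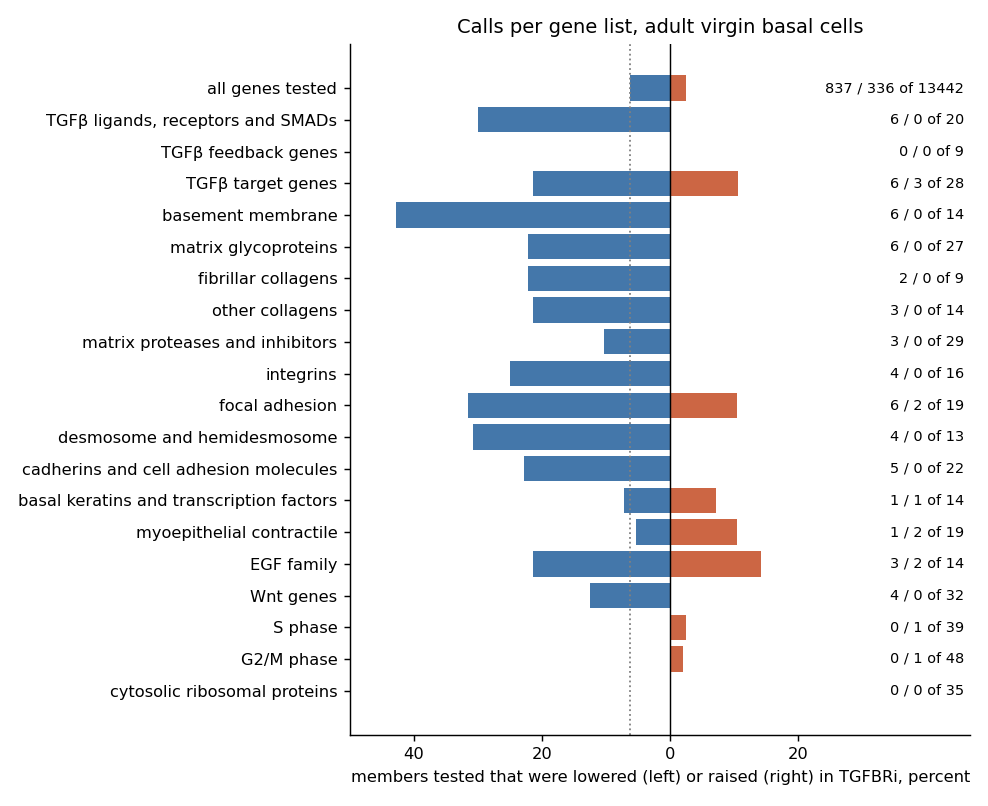
Percent of tested members lowered (left) and raised (right) in each gene list, with counts at the right and a dotted line at the share of all genes lowered. Basement membrane genes show 6 of 14 lowered, against 6.23% of all genes.

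The genes of basal identity and contraction did not move as one. Of 14 basal keratins and transcription factors 1 was raised (SNAI2) and 1 lowered (KRT5), with a median of -0.07, and 0 were raised and 1 lowered without vehicle replicate 1 and TGFBRi replicate 3. KRT5 was at 13917, 35548, 12370 and 20739 in TGFBRi rats, of which replicates 2 and 4 were above vehicle replicate 1 (log2 -1.22 ± 0.36, adjusted p = 0.0428). Its call was lost without vehicle replicate 2, 3 or 4 or TGFBRi replicate 1, 3 or 4, where the adjusted p reached 0.129. Without vehicle replicate 1 and TGFBRi replicate 3 together KRT5 was called (log2 -1.41, adjusted p = 0.0131). KRT14 (log2 -0.58 ± 0.28, adjusted p = 0.2) and TP63 (log2 -0.99 ± 0.36, adjusted p = 0.0919, and 0.0347 by DESeq2) did not pass. Of 19 contractile genes 2 were raised and 1 lowered (median -0.11), and 1 each without vehicle replicate 1 and TGFBRi replicate 3. Beside both lists, 2.5% of all genes were raised and 6.23% lowered, and 1.18% and 3.39% without those libraries.

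ACTA2, smooth muscle actin, was at 6701, 13512, 11851 and 12357 in vehicle rats and 34658, 66635, 34213 and 34689 in TGFBRi rats. The lowest TGFBRi value was above the highest vehicle value, and TGFBRi replicate 2 was the highest (3.79-fold higher, log2 1.92 ± 0.28, adjusted p = 0.00127). It was called in each fit that left out 1 rat and with only the 8 virgin samples (adjusted p = 0.0347). Actin genes share long stretches of coding sequence, and how far the division of reads among them bears on this value was not tested. ACTA1, skeletal muscle actin, was at 1213 to 2557 and 2983 to 8525 (adjusted p = 0.0774). LMOD1, leiomodin, which nucleates actin filaments in smooth muscle, rose by 1.08 ± 0.24 on the log2 scale (adjusted p = 0.0129). CAVIN1, a coat protein of caveolae, was at 3587 to 5196 and 588 to 2028 (log2 -1.93 ± 0.35, adjusted p = 0.00376).

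As the contractile gene with the largest rise, ACTA2 is shown with the 250 bases before its start, from RefSeq (GRCr8, chr1:241172504-241172753, minus strand). Capitals mark CAGAC, the core of the SMAD-binding element, which was searched as CAGAC and as GTCTG so that both strands were read.
ACTA2: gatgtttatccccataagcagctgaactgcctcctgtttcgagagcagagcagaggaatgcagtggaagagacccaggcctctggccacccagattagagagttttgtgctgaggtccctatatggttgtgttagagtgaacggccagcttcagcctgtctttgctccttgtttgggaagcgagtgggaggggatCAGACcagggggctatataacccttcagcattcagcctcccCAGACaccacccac
CAGAC occurred at 55 and 14 bases before the start. The motif was present in 42.9% of 33469 promoters of the same length, in 42.2% of promoters of tested genes, in 41.2% of those of raised genes and in 41.3% of those of lowered genes. A match is a description of these letters and not of a bound site.

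Secreted signals and their receptors changed at several points. PTHLH, parathyroid hormone-related protein, which basal cells of the mammary gland are known to secrete, was at 207, 318, 511 and 427 in vehicle and 2793, 848, 6270 and 7873 in TGFBRi rats, with TGFBRi replicate 2 the lowest of its group and no overlap (9.47-fold higher, log2 3.24 ± 0.52, adjusted p = 0.00219). NRG2, a neuregulin that binds ERBB3 and ERBB4, was at 2687, 2199, 4909 and 3320 in vehicle and 14850, 11019, 9474 and 10365 in TGFBRi rats (3.59-fold higher, log2 1.85 ± 0.36, adjusted p = 0.00618). Its TGFBRi values were narrow and all above the vehicle range. ERBB3, a neuregulin receptor, was at 2457, 802, 678 and 777 and at 389, 250, 157 and 229 (log2 -2.05 ± 0.41, adjusted p = 0.00679). EGFR, chosen after its values were seen, was at 1682 to 2217 and 515 to 1234 (log2 -1.27 ± 0.27, adjusted p = 0.00924). Over the EGF family 2 of 14 members were raised and 3 lowered (median -1.04), and 1 and 2 without vehicle replicate 1 and TGFBRi replicate 3 (median -0.44). Of all genes 2.5% were raised and 6.23% lowered (median -0.25), and 1.18% and 3.39% without those libraries (median -0.11). With only the 8 virgin samples 1 EGF family member was raised and 0 were lowered, beside 0.268% and 0.766% of all genes. The adjusted p of ERBB3 was then 0.0602 and that of EGFR 0.0591.

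IGFBP5, which binds insulin-like growth factors in the matrix, was at 18126, 18431, 20210 and 20470 in vehicle and 7475, 6778, 7910 and 2039 in TGFBRi rats, a narrow vehicle group with no overlap (log2 -1.85 ± 0.38, adjusted p = 0.00859). The Wnt coreceptor LRP6 was at 2594 to 4090 and 712 to 1834 (log2 -1.54 ± 0.26, adjusted p = 0.00293). FRZB, a secreted Wnt antagonist, was at 87.3, 49.2, 89 and 53.8 in vehicle rats and at 0 in all 4 TGFBRi rats. With a floor of 3 reads per library this was at least 21.7-fold lower (adjusted p = 6.1e-04). LGR5, the R-spondin receptor that marks stem cells in several epithelia, was at 8.19, 40.8, 32.2 and 29.7 and again at 0 in all TGFBRi rats, at least 8.61-fold lower (adjusted p = 0.00886). Of 32 Wnt genes 4 were lowered and 0 raised (median -0.32), beside 6.23% and 2.5% of all genes (median -0.25). With only the 8 virgin samples 2 were lowered, beside 0.766% of all genes. VDR, the vitamin D receptor, fell (log2 -1.42 ± 0.30, adjusted p = 0.00958), from 1505 to 2067 in vehicle to 404 to 1314 in TGFBRi rats. Its adjusted p was 0.0886 with only the 8 virgin samples.

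Of 39 S phase genes 1 was raised and 0 lowered, and of 48 G2/M genes 1 was raised and 0 lowered, raised shares close to the 2.5% of all genes. DESeq2 raised 3 and lowered 1 of the G2/M genes, beside 4.9% and 7.66% of all genes. Their medians depended on the scale and the tool: for S phase the median was -0.22 by limma on normalized counts, 0.11 on TMM-scaled CPM and 0.25 by edgeR, and for G2/M it was -1.06, -0.05 and 0.90. MKI67, a marker of cycling cells, was at 52.7, 278, 16.1 and 157 in vehicle and 28.7, 72.5, 0 and 856 in TGFBRi rats (log2 -1.11 ± 1.62, adjusted p = 0.698, and log2 0.91 by edgeR). PCNA, the replication clamp, was at 1955 to 3150 and 2782 to 5272 (log2 0.64 ± 0.26, adjusted p = 0.126).

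Among the genes with the largest rises, 5 shared their order over the TGFBRi rats. LPIN2, a phosphatidate phosphatase of lipid synthesis, was at 355, 538, 303 and 432 in vehicle rats and at 3677, 1927, 9960 and 6380 in TGFBRi rats (11.6-fold higher, log2 3.53 ± 0.36, adjusted p = 1.4e-04). HS6ST1, which adds sulfate to heparan chains, was at 1485 to 1909 in vehicle rats and at 11651, 4547, 38460 and 20882 in TGFBRi rats (8.85-fold higher, log2 3.15 ± 0.43, adjusted p = 8.6e-04). RAP1GDS1, an exchange factor for small GTPases, MAP3K12, a kinase of the JNK cascade, and MOB1A, an activator of LATS kinases in the Hippo pathway, had log2 fold changes of 3.02 ± 0.45, 2.89 ± 0.41 and 2.88 ± 0.42 and adjusted p-values of 0.00142, 9.5e-04 and 0.00118. In each of these 5 genes TGFBRi replicate 3 was the highest, followed by replicates 4, 1 and 2, and the groups did not overlap. The numbers of genes detected after thinning ran in the reverse order, at 10151, 11094, 11257 and 11279 in TGFBRi replicates 3, 4, 1 and 2. With all reads they were 10151, 11116, 11434 and 11306. The part of gene detection in these values was not tested. Without vehicle replicate 1 and TGFBRi replicate 3 the 5 log2 fold changes were 3.11, 2.64, 2.51, 2.32 and 2.54, in the order named, and all were called. RBPJL, a relative of the Notch transcription factor RBPJ, was also raised (log2 3.68 ± 0.81, adjusted p = 0.0118), with 2256 in TGFBRi replicate 1 and 116 to 217 in the other 3, all above the vehicle range of 10.8 to 42.4. Its adjusted p was 0.0997 with only the 8 virgin samples.

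The largest falls were of genes at 0 reads in some or all TGFBRi rats. MYO5A, an actin motor that carries vesicles, was at 89.1, 104.2, 141 and 96.5 in vehicle rats and at 0 in all TGFBRi rats, at least 33.4-fold lower (adjusted p = 3.7e-05), or at least 30-fold without vehicle replicate 3. ADCYAP1R1, the receptor for the peptide PACAP, was at 101.9, 30.8, 181.5 and 130 against 0, at least 34.5-fold lower (adjusted p = 0.00263), or at least 27.2-fold without vehicle replicate 3. SSC5D, a secreted scavenger receptor, was at 365, 36.7, 152 and 12.1 against 0, at least 43.9-fold lower (adjusted p = 9.5e-04), or at least 20.7-fold without vehicle replicate 1. NUP210, a nuclear pore protein, was at 117 to 523 in vehicle rats and at 1.3, 0, 0 and 40.9 in TGFBRi rats (adjusted p = 0.00587). In all 4 genes the groups were separate, and each was called without vehicle replicate 1 and TGFBRi replicate 3 as well. The virgin TGFBRi libraries detected fewer genes than any other adult basal group. The part of this in falls to 0, here and in the other genes at 0 in TGFBRi rats, was not tested.

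The calls among markers of cells that the sort should have removed depended on the tool. Beside 6.23% of all genes lowered, limma lowered 2 of 17 endothelial, 1 of 23 leukocyte and 1 of 20 luminal markers (medians -2.43, -2.14 and -1.20). DESeq2 lowered 5, 5 and 6 of them, beside 7.66% of all genes, and edgeR 1, 3 and 1, beside 4.1%. The leukocyte median was -4.25 by edgeR and -4.31 by DESeq2. On log2(CPM + 1) the endothelial median was -1.28 with TMM and -1.31 with library totals, and the leukocyte median -0.78 and -0.76. Without vehicle replicate 1 and TGFBRi replicate 3 none of either list was called by limma and the medians were -1.10 and -0.66, beside -0.11 for all genes. PECAM1, the CD31 antigen of endothelium, was at 2768, 183, 527 and 378 in vehicle and 62.6, 213, 2.89 and 43 in TGFBRi rats. Vehicle replicate 1 was the highest, and TGFBRi replicate 2 was above vehicle replicate 2 (log2 -3.86 ± 0.98, adjusted p = 0.0239). Without vehicle replicate 1, vehicle replicate 3 or TGFBRi replicate 3 its adjusted p was above the threshold, at up to 0.0692. The defining leukocyte marker PTPRC was at 0 to 2.89 in the 7 samples other than vehicle replicate 1. The lowered luminal marker was PGR, the progesterone receptor, at 473, 71.7, 174 and 110 against 0, 61, 0 and 0 (adjusted p = 0.00627, and 0.105 by edgeR). KRT18 was at 3614 to 31330 and 3109 to 11109 (adjusted p = 0.722). The part of these cells in the matrix, adhesion and other results was not tested beyond leaving out the libraries named.

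In parous rats of the same age class, given the same treatment, limma called 1 of 13442 genes (0.00744%), against 678 at an unadjusted p under 0.05, and edgeR called 0 and DESeq2 14 (0.104%). The gene was PLXNB3, a semaphorin receptor chosen after its values were seen, which was at 0 in the 4 parous vehicle rats and at 50.6 to 167 in the parous TGFBRi rats (adjusted p = 0.0202). In virgin rats PLXNB3 was at 26.4, 21.7, 43.2 and 0.928 with vehicle and at 0, 0, 1.44 and 0 with TGFBRi, a fall that was called (adjusted p = 0.0198, up to 0.071 without vehicle replicate 2 or 3).

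The treatment effect differed between virgin and parous rats in 140 genes by the interaction test (1.04%), with 24 differences positive, the virgin effect above the parous one (0.179%), and 116 negative (0.863%), and 135 of the genes were also called in virgin rats. The count was 19 without virgin vehicle replicate 3, 62 to 81 without virgin vehicle replicate 1, 2 or 4, 520 without virgin TGFBRi replicate 1, 363 without virgin TGFBRi replicate 2 and 115 without virgin vehicle replicate 1 and TGFBRi replicate 3. TGFBR1 was among them: it was at 373 to 689 in parous vehicle and 556 to 750 in parous TGFBRi rats (log2 0.31 ± 0.31), a difference of effects of -2.70 (adjusted p = 0.0116). ACTA2 was at 12780 to 29165 and 14406 to 19166 in parous rats (log2 -0.08 ± 0.28), and its effects differed by 2.00 (adjusted p = 0.0301). PTHLH was at 209 to 438 and 204 to 328 in parous rats, with a difference of effects of 3.63 (adjusted p = 0.0304). Effects of FLNA (-1.76, adjusted p = 0.0492), FBN1 (-3.23, adjusted p = 0.0249), LAMC1 (-1.55, adjusted p = 0.0381), COL6A2 (-1.55, adjusted p = 0.0334) and CTNNB1 (-1.53, adjusted p = 0.0492) differed too. For other genes the difference did not pass, such as COL4A1 (-1.45, adjusted p = 0.125), LTBP2 (-2.20, adjusted p = 0.0982), THBS1 (-1.84, adjusted p = 0.173), CDKN1A (1.90, adjusted p = 0.164) and KRT5 (-0.51, adjusted p = 0.633). For KRT5 the log2 fold change in parous rats was -0.71 ± 0.36. The virgin TGFBRi libraries held reads on 10151 to 11434 genes and the other adult basal libraries on 11775 to 12575. This trait was shared by the whole virgin TGFBRi group, and its part in the differences of effects was not tested.

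**Figure D5:**
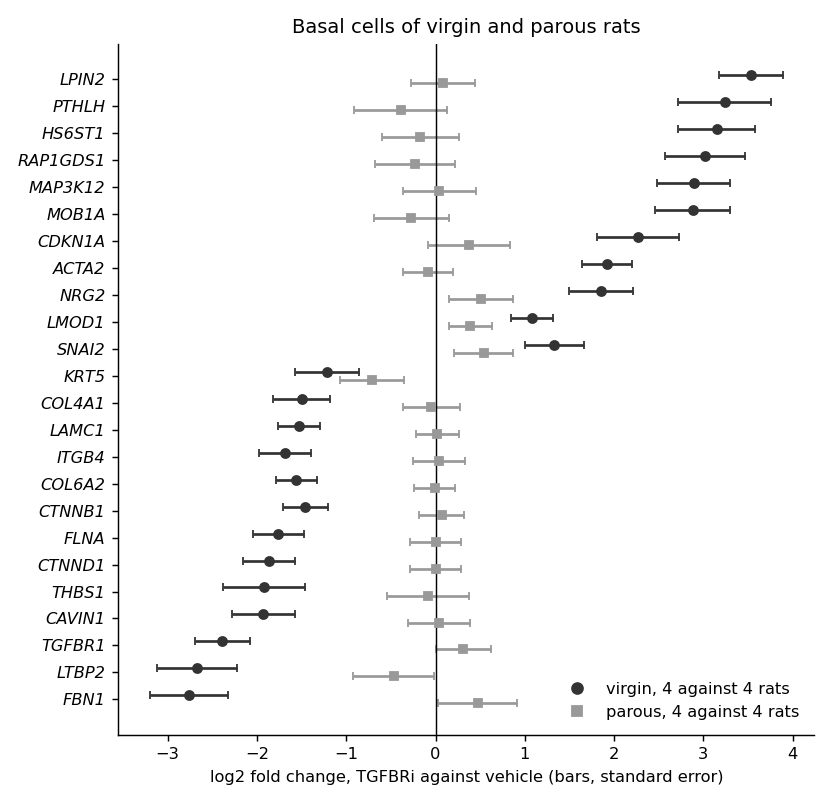
Log2 fold changes of TGFBRi against vehicle with their standard errors for 24 named genes in virgin (circles) and parous (squares) basal cells, 4 against 4 rats each. Parous values lie near 0 for most genes, as for ACTA2 at -0.08 against 1.92 in virgin rats, and KRT5 is below 0 in both.

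In luminal cells of the virgin rats, limma called 0 of 14243 genes (0%), with 976 at an unadjusted p under 0.05. edgeR called 0 and DESeq2 15 (0.105%). The difference between basal and luminal effects, tested on the basal minus luminal value within each rat, passed in 7 of 13151 genes (0.0532%), all with a lower basal effect. FRZB, SSC5D and RO60, an RNA-binding autoantigen chosen after its values were seen, were among these 7. RO60 was at 63.7, 115, 212 and 143 in basal cells of vehicle rats and 1.96, 5.75, 0 and 0 in those of TGFBRi rats. Leaving out 1 rat gave 1 to 5 such genes, and log2(CPM + 1) with TMM over both fractions gave 3.

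Basal cells of young ACI rats at day 0 after the same drug, 3 against 3, came from other animals and were normalized in a table of their own, so that values and calls are set side by side. There, 523 of 15643 genes were called (3.34%), 392 raised (2.51%) and 131 lowered (0.837%). The median log2 fold change over all genes was 0.3, against -0.25 in adult virgin basal cells. Young vehicle libraries held 12382292 to 18781674 reads on 12612 to 14603 genes. Young TGFBRi libraries held 4194912 to 15136358 reads on 14020 to 15297 genes. The part of depth and gene detection in the young values was not tested. Of the genes raised in adult virgin basal cells 327 were tested in young rats, of which 2 were raised and 2 lowered and 44% had a positive log2 fold change. Of the genes lowered in adults 804 were tested, of which 12 were raised and 5 lowered and 50.9% were positive, beside 55.3% of all genes tested in both. KRT5 fell in both ages, at 16839 to 22126 in young vehicle and 4474 to 9677 in young TGFBRi rats (log2 -1.44 ± 0.31, adjusted p = 0.0245). LTBP2 was at 2363 to 4635 and 52.7 to 876 in young rats (log2 -4.02 ± 1.12, adjusted p = 0.0581). ACTA2 was at 6138 to 8703 in young vehicle rats and 3873 to 4986 in young TGFBRi rats (log2 -0.77 ± 0.46, adjusted p = 0.302). TGFBR1 was at 930 to 1503 and 524 to 1551 (log2 -0.40 ± 1.35, adjusted p = 0.887).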

How the data were processed

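Samples were assigned from their labels. The deposited bulk values have the unit of a signal: per the methods, the authors aligned reads with STAR 2.5.1b to rn6, counted reads without strand by HTSeq over the RefSeq annotation, and scaled every sample by the size factor that DESeq2 1.30.1 gave it. Since the smallest step of each column is 1 read, whole reads were recovered (100.0% of values within 0.001 of a whole number). Genes with normalized counts summing to at least 10 were tested with limma 3.58.1 in R 4.3.3 (trended, robust, pseudocount 1, 16 adult basal samples in 4 groups, Benjamini-Hochberg). edgeR 4.0.16 and DESeq2 1.42.0 were run on the recovered reads. In simulated data with 200 changed genes among 13272 tested, limma recovered 12% of those changed by 1 and 70% of those changed by 2 on the log2 scale, with 5 false calls, and DESeq2 39% and 82%, with 44 false calls. Apart from the changed genes, all simulated libraries had a common mean and spread per gene. They held no library that stood apart and no group with fewer genes detected, so the false calls hold for that setting only. The rule for named genes took the 8 largest non-overlapping changes in each direction with a mean of at least 50, up to 4 called members per list (or 2 where none was called) and a set of markers. Members and the 45 gene lists were chosen with earlier results of these data known. Genes counted without strand cannot be told from antisense partners. Single-cell, tumor, CD45+ and other bulk tables were not used here, and some genes that the rule names are not reported here.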

Additional observations from a re-analysis of the deposited data

Results flagged for a closer look

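In 16 of 158 groups of 4 values examined, the gap between the highest or lowest sample and the next took up most of the group's range, where chance flags about 1 in 20 groups. Vehicle replicate 1 stood apart in 5 genes: KRT5 (19332 normalized counts), KRT14 (76463) and LRP6 (2594) were its low values, and KRT8 (102508) and ERBB3 (2457) its high ones. TGFBRi replicate 4 stood apart in FN1 (2991), COL1A1 (76522) and TOP2A (894), each as the highest, and in IGFBP5 (2039) as the lowest. TGFBRi replicate 2 was highest in ACTA2 (66635) and in PGR (61, against 0 in the other 3). TGFBRi replicate 1 had the most reads on genes (36217197) and the largest share of reads on no gene (21.02%). RAP1GDS1 was highest in vehicle replicate 2 (454, against 361 to 370.1 in the other 3) and TGFBR3 in vehicle replicate 3 (3168). For PLXNB3 the value in TGFBRi replicate 3 (1.44) is a single read against 0 in the other 3, which meets the criterion by construction and sets no library apart. What set these samples apart was not tested.

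By the interaction test (virgin minus parous) 140 genes were called, and 19 without virgin vehicle replicate 3. Among the 140, the log2 fold change differed between virgin and parous basal cells as follows. It was higher in virgin rats for PTHLH (3.63), LPIN2 (3.45), HS6ST1 (3.32), RAP1GDS1 (3.26), MOB1A (3.15), MAP3K12 (2.85) and ACTA2 (2.00). It was lower for the adhesion and cytoskeletal genes TNS1 (-2.42), CTNND1 (-1.86), FLNA (-1.76), CTNNB1 (-1.53) and TLN1 (-1.29), for the matrix genes FBN1 (-3.23), LAMC1 (-1.55) and COL6A2 (-1.55), and for the receptors TGFBR1 (-2.70) and NOTCH2 (-1.94). Among genes at or near 0 in TGFBRi rats, where the fitted value depends on the pseudocount, the differences were -9.89 for PLXNB3, -7.33 for SSC5D, -7.11 for FRZB, -6.68 for MYO5A, -6.65 for GBP5 and -6.28 for RO60. Between basal and luminal cells of virgin rats the effects differed in FRZB (-8.34), SSC5D (-7.72) and RO60 (-6.47), basal minus luminal.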

How the results depend on the processing

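Of 1592 recomputed log2 fold changes of named genes 0 reversed after a call, and under pseudocounts of 0.5 and 10, no filter on low values and thinned reads all 76 stayed on their side of the threshold. Calls in virgin basal cells numbered 139 with only the 8 virgin samples and 614 without vehicle replicate 1 and TGFBRi replicate 3, chosen after seeing the data like the thinning, and 505 to 1710 when 1 rat was left out. The other settings gave 822 to 1688. In parous rats edgeR called 0 and DESeq2 14 genes, against 1. Differences between virgin and parous effects numbered 577 by DESeq2, against 140, and 19 to 520 when 1 virgin rat was left out. In luminal cells DESeq2 called 15 genes, against 0. Differences between fractions numbered 3 on CPM with TMM, against 7, and 1 to 5 with 1 rat left out. The causes were not tested.

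Vehicle and TGFBRi rats carried the same animal codes, but the deviations of same-numbered rats correlated at 0.143, -0.105, -0.038 and 0.181 over 9954 genes, and not every rat correlated best with its own number, so that the numbers were not taken as pairs. With a replicate block 825 genes were called in virgin rats and 0 differed between virgin and parous rats by limma, with 2257 at an unadjusted p under 0.05. List medians stayed within the spread between rats in 869 of 944 recomputed values. Depth limits the low genes: 3 reads per library are the floor of each fold against 0, and counting error alone is covered by it.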

Other observations

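Among groups not described above, axon guidance genes, which also steer the branching of epithelium, showed 5 of 29 members lowered and 0 raised (median log2 fold change -0.82 against -0.25 for all genes), and 2 lowered without vehicle replicate 1 and TGFBRi replicate 3. With only the 8 virgin samples limma called 0 axon guidance, Notch, apoptosis and FGF genes, and the adjusted p-values of SEMA3C, NOTCH2, APAF1 and SPRY1 were 0.107, 0.0865, 0.0513 and 0.0806. SEMA3C, a secreted semaphorin, was at 2478, 2883, 3283 and 2314 normalized counts in vehicle rats and at 981, 1322, 787 and 2175 in TGFBRi rats, without overlap (log2 -1.15 ± 0.25, limma adjusted p = 0.0113). Of 17 Notch genes 2 were lowered, and 1 without those libraries. Of all genes 6.23% were lowered, and 3.39% without those libraries. NOTCH2, a receptor of the family, was at 1367 to 3038 and 536 to 1150 (log2 -1.32 ± 0.28, limma adjusted p = 0.00963). Apoptosis genes had 3 of 22 lowered members, 2 without those libraries, beside the same shares of all genes. Among the lowered members APAF1, the scaffold of the apoptosome, was at 492 to 678 and 143 to 314 (log2 -1.66 ± 0.33, limma adjusted p = 0.00629).

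SPRY1, which dampens receptor tyrosine kinase signals, was the 1 raised gene of 16 FGF pathway genes, of which 2 were lowered, or 0 without vehicle replicate 1 and TGFBRi replicate 3. Of all genes 2.5% were raised and 6.23% lowered, and 3.39% were lowered without those libraries. SPRY1 was at 3295 to 4391 in vehicle and 5189 to 7884 in TGFBRi rats (log2 0.87 ± 0.19, limma adjusted p = 0.0117). GBP5, an interferon-induced GTPase, was at 120, 24.2, 47.5 and 9.28 in vehicle rats and at 0 in all 4 TGFBRi rats, at least 15.6-fold lower with a floor of 3 reads per library, or at least 8.38-fold without vehicle replicate 1 (limma adjusted p = 0.00313). In young rats it went the other way, with a log2 fold change of 2.85 (limma adjusted p = 0.0448). The 23 leukocyte markers also had a positive median in young basal samples, 2.61, beside 0.3 for all genes. Of these markers 3 were raised and 0 lowered there, beside 2.51% and 0.837% of all genes. The part of leukocytes in the GBP5 values was not tested at either age. Of 35 cytosolic ribosomal protein genes limma and edgeR called 0, beside 8.73% and 6.55% of all genes. DESeq2 lowered 5, beside 7.66% of all genes. The median was -0.35 by limma, against -0.25 for all genes. Without vehicle replicate 1 and TGFBRi replicate 3 limma lowered 1, beside 3.39% of all genes. Their many processed copies make single values uncertain. Of 13 milk genes limma called 0, and edgeR and DESeq2 called 1 each, beside 8.73%, 6.55% and 12.6% of all genes. Their median was -0.65, and 0.32 without those libraries, and their summed level was 373627 in vehicle replicate 1 against 112132 to 139385 in the other vehicle rats.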
